A study of Sus scrofa with 2 samples.

Results

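The miR-506 to miR-514 miRNAs are a testis-expressed family, and they are described here in pig testis at 2 ages. Members were the sequence tags named miR-506, miR-507, miR-508, miR-509, miR-510, miR-513, miR-513a, miR-513b, miR-513c or miR-514, once the species, the copy number and the arm had been dropped from the name. Of these names 9 had a read, out of 1120 names in the series, and with arms kept apart they made 11 of 1383. Of the 11, 7 had 20 or more reads over both libraries and were compared, among 469 such names in all. No tag was named miR-513 without a letter.

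Small RNA came from whole testes of Junmu-1 boars, a white Chinese pig breed, at 180 days, when sexually mature, and at 30 days, when sexually immature. Each library was made from the pooled RNA of 3 boars, with 1 library per age, so no test between ages was possible, and the ratios below compare these libraries with exact 95% intervals that cover counting error only. The 180-day library had 852209 reads in 28643 miRNA-matched tags, against 7525725 reads in 82288 tags in the 30-day library. Levels are RPM, reads scaled to the same total of these miRNA-matched reads, and 3 reads were worth 3.52 RPM in the 180-day library and 0.399 RPM in the 30-day library.

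A miRNA guides the silencing of messenger RNAs mainly through its seed, bases 2 to 8 from its 5′ end, so a change in the seed or in the start of the molecule changes which targets it can pair with. The miR-506 family lies in clusters on the X chromosome of placental mammals, differs in copy number and sequence between species more than most miRNAs do, and in mouse and primates is best known from testis. Most entries with names from miR-506 to miR-514 met here are of primates, and many rodent relatives carry other names.

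Names of mostly primate entries were therefore being read on pig molecules, which made the sequences themselves the first thing to describe. Tags of the members fell into 7 groups of like sequence, a grouping made after the data were seen, and the most read tag of each group is shown 5′ to 3′ in DNA letters, with the seed in capitals. They are shown because the name in the lists does not always tell which of these molecules was read.
miR-509-5p sequence: tACTGCAGagagtggcaatcat
miR-513a sequence: tTCACAAGaaggtgtcaattca
miR-506 sequence: tGAATGGCgcctttctgagtaga
miR-508 sequence: tGACTGTCacctttttgagtaga
miR-514 sequence 1: tGATTGGCacctctttgagtga
miR-514 sequence 2: tGATTGACacctctgttagtgga
miR-507 sequence: aTTGGCACtttttagagtgtga

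The leading sequences were of 2 kinds. The miR-506, miR-508, miR-507 and both miR-514 sequences were 61.9 to 82.6% identical to one another where they overlapped, with 19 of 23 bases shared by miR-506 and miR-508. The miR-509-5p and miR-513a sequences shared 12 of 22 bases with each other, and only 27.8 to 36.8% with the first kind. Laid antiparallel without gaps, and with G-U pairs counted, the miR-509-5p sequence could pair 15 to 17 of 19 to 21 bases with each of the first kind, against 7 of 19 with miR-513a. The miR-513a sequence could likewise pair 15 to 17 bases with each of the first kind, while members of the first kind paired 10 to 14 bases with each other. In primates miR-509-5p and miR-513a-5p come from the 5′ arm of their hairpins, and the main products of miR-506, miR-507, miR-508 and miR-514 come from the 3′ arm. The 7 sequences had 7 different seeds.

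Almost no member read matched its listed entry in full. Matches with neither a mismatch nor an unmatched base were 2 of 15638 member reads in the 180-day library and 3 of 47679 in the 30-day library. With 1 mismatch there were 88.2% and 88.5% of the member reads at 180 and 30 days, and with 2 mismatches 10.9% in both. Outside the members, reads with 1 or 2 mismatches made up 14.7% of the 180-day and 11.7% of the 30-day library. The members were listed under 23 entries, 21 of them of primates, beside 1 of dog and 1 of mouse. The entries against which the leading tags were listed are these, with the seed in capitals.
hsa-miR-509-5p (human): tACTGCAGacagtggcaatca
age-miR-513a (spider monkey): tTCACAAGgaggtgtcattcat
age-miR-506 (spider monkey): aATGGCGCccttctgagtaga
pbi-miR-508 (snub-nosed monkey): tGATTGTCacctttttgagtaga
cfa-miR-514 (dog): tGATTGACacctctgtgagtgga
age-miR-507 (spider monkey): tTTGGCACtttttagagtgaa

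Counted from 1 at the entry's 5′ end, with the entry's base first, the miR-509-5p sequence differed by C10G, outside the seed. The miR-506 sequence differed by C10T and began 2 bases earlier than the entry, so that its leading seed, GAATGGC, is not the entry's ATGGCGC. The miR-508 sequence differed by T4C, which lies in the seed. The miR-514 sequence 1 differed by A7G in the seed and by G15T and G22A, while the miR-514 sequence 2 differed by G17T alone and kept the dog seed. The miR-507 sequence differed by T1A, A20T and A21G, and its seed was that of the entry. The miR-513a sequence kept its entry's seed and differed, without gaps, by G9A, T18A, C20T, A21C and T22A. In the deposited match it had only 1 mismatch and 2 unmatched bases, since an added A accounts for the later differences. No pig genome was used here, so these letters are those of the tags alone.

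As a family the members made up a larger part of the miRNA pool in the 180-day library. They held 15638 reads (18350 RPM) at 180 days against 47679 reads (6335 RPM) at 30 days, a ratio of 2.90 (2.84 to 2.95). All 7 compared names were higher in the 180-day library (a ratio of 2 or more with an interval excluding 1) and 0 lower per miRNA-matched read, but all 7 ratios were below 1 per read of the whole library. Among all 469 compared names 29.4% were higher and 11.3% lower, 40.7% in all; per read of the whole library 0 members were higher and 4 lower, beside 5.76% and 84.4% of all names. With the TMM factors of edgeR 4 members were higher and 0 lower, beside 15.4% and 33.7% of all names, and with median-of-ratios scaling likewise 4 and 0, beside 15.8% and 33.7%. The members that lost the call under both were miR-509-5p, miR-507 and miR-510, at ratios of 1.28 to 1.86. The median log2 ratio was 2.01 over the 7 names and 0.22 over all 469. The median-of-ratios scaling instead used every name with a read in both libraries, however few, and put a ratio of 1.86 at 1. Names with very few reads counted in it as much as the others. The whole-library scaling used the smallest totals compatible with the tag numbers, 12035098 reads at 180 days against 12711254 at 30 days. It shifted every log2 ratio by -3.06, which puts each ratio under 8.36, and so every member ratio given here, below 1. Both totals are lower bounds that leave out tags numbered after the last listed one, and the 180-day list begins at tag number 8. The shift is thus not a bound in either direction, and the true shift may be larger or smaller. The values that follow are therefore shares of the miRNA pool, and in whole testis fewer cells of a type and less RNA per cell cannot be told apart.

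The most read member was miR-509-5p, which in human cells has been reported to lower MDM2. It had 11059 reads (12977 RPM) at 180 days against 40523 reads (5385 RPM) at 30 days. Its ratio was 2.41 (2.36 to 2.46), but 1.28 with TMM and 1.296 with median-of-ratios scaling, where it was not called. The value of 2.41 was the lowest of the 7, although the interval of miR-510 (2.28 to 3.62) covers it, and without the most read tag of each name miR-510 at 2.34 and miR-513a at 2.38 lay below miR-509-5p at 2.48. Among the 469 names it ranked 21st by level in the 180-day library and 29th in the 30-day library.

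The next in level was miR-506, studied in human cancer cells as a brake on epithelial-mesenchymal transition. It had 3578 reads (4198.5 RPM) at 180 days against 5078 reads (675 RPM) at 30 days. Its ratio of 6.22 (5.96 to 6.50) was the highest of the 7, and its interval lay above those of the others, except for that of miR-513a, which reached 6.24. It ranked 36th by level at 180 days and 78th at 30 days, and 44th of 469 by ratio.

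The 3′-arm relatives of miR-506 followed it in level at both ages. miR-508, whose 3′ product has been studied in human kidney cancer, had 466 reads (546.8 RPM) at 180 days against 899 reads (119 RPM) at 30 days, a ratio of 4.58 (4.08 to 5.13). miR-514, studied in human melanoma, had 278 reads (326 RPM) at 180 days against 482 reads (64.0 RPM) at 30 days, a ratio of 5.09 (4.38 to 5.92). Their ratios had overlapping intervals, so the order of these 2 ratios was not resolved by the counts. miR-507, reported to repress the oxidative stress factor NRF2 in human cells, had 120 reads (141 RPM) at 180 days against 307 reads (40.8 RPM) at 30 days, a ratio of 3.45 (2.77 to 4.28).

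The least read of the compared names were miR-510 and miR-513a. miR-510, known from a human variant in its target site in the serotonin receptor gene HTR3E, had 101 reads (119 RPM) at 180 days against 309 reads (41.1 RPM) at 30 days, a ratio of 2.89 (2.28 to 3.62). miR-513a, whose 5′ product represses the immune checkpoint ligand CD274 in human bile duct cells, had 31 reads (36.4 RPM) at 180 days against 68 reads (9.04 RPM) at 30 days, a ratio of 4.03 (2.54 to 6.24). The order of the levels was the same in both libraries but for miR-507 and miR-510, whose intervals overlapped at each age (at 180 days 117 to 168 RPM for miR-507 and 96.5 to 144 RPM for miR-510, at 30 days 36.4 to 45.6 RPM for miR-507 and 36.6 to 45.9 RPM for miR-510). Every other pair of neighbours in that order had intervals that did not overlap.

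**Figure D1:**
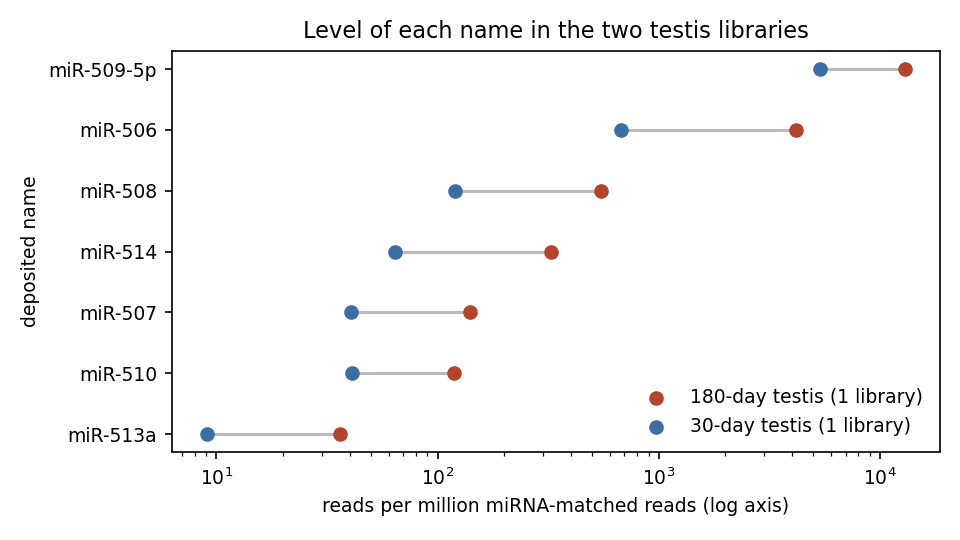
Levels of the 7 compared members in RPM on a log axis, in the 180-day and the 30-day library. A grey line joins the points of each member and is not an interval. Per miRNA-matched read every member was higher in the 180-day library. Levels ran from miR-509-5p at 12977 RPM at 180 days and 5385 RPM at 30 days to miR-513a at 36.4 and 9.04 RPM. Per read of the whole library, at the lowest totals the tag numbers allow, each member was lower at 180 days.

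The other 4 names had under 20 reads over both libraries and were not compared. At 180 days miR-513c had 3 reads, miR-508-5p 1, miR-513a-5p 1 and miR-513b 0. At 30 days miR-513c and miR-508-5p had 5 reads each, miR-513a-5p 1 and miR-513b 2. Of the reads of miR-508, its 5p arm held 0.214% at 180 days (0.00542 to 1.19%) and 0.553% at 30 days (0.180 to 1.29%), which counts the arm by its listed name alone. A count of 0 allows up to 3.52 RPM of miR-513b at 180 days, above the 0.266 RPM read at 30 days, so no difference was detectable at this depth.

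**Figure D2:**
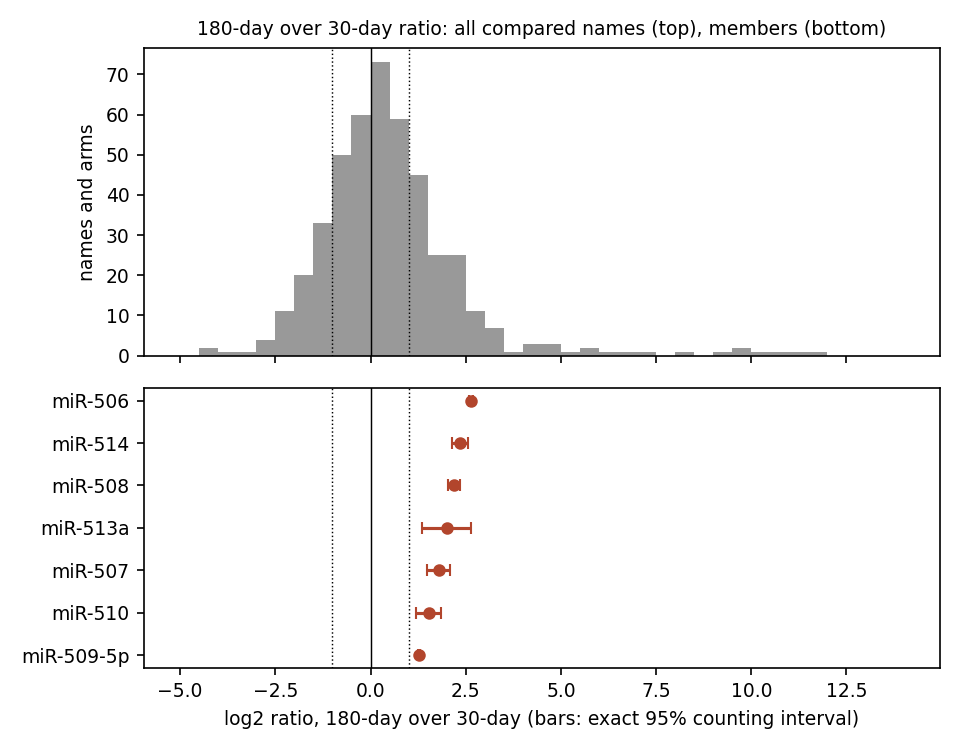
Log2 ratio of the 180-day over the 30-day library on the horizontal axis, as a histogram of the 448 compared names with reads in both libraries (top) and for the 7 members with exact 95% counting intervals (bottom); dotted lines mark a 2-fold difference. Per miRNA-matched read the members lay between log2 ratios of 1.27 for miR-509-5p and 2.64 for miR-506. The median of all 469 names was 0.22. With the lowest whole-library totals as the base, members and median alike shift by -3.06, which puts all 7 members below 0.

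Grouping the tags by sequence in place of name left the ratios of the main molecules nearly as they were. The miR-509-5p sequence had 11148 reads at 180 days against 40779 at 30 days, a ratio of 2.41 (2.36 to 2.47). The miR-506 sequence had 3582 reads at 180 days against 5059 at 30 days, a ratio of 6.25 (5.99 to 6.53). The makeup of the listed member reads therefore differed between the libraries, a comparison that no scaling changes. Shorter tags of the miR-506 sequence may be missing from the lists, so these are shares of the listed reads alone. At 180 days the miR-509-5p sequence held 71.3% of the member reads (70.6 to 72.0%) and at 30 days 85.5% (85.2 to 85.8%), and the miR-506 sequence held 22.9% at 180 days (22.2 to 23.6%) and 10.6% at 30 days (10.3 to 10.9%).

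**Figure D3:**
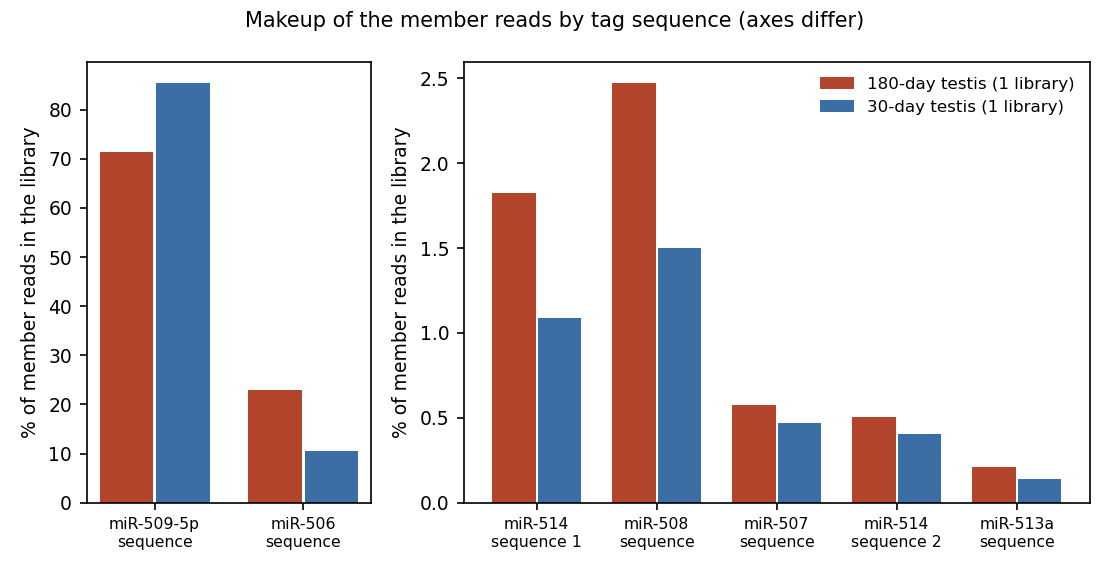
Share of the member reads (percent) held by each sequence group in the 180-day and the 30-day library. The panels have different vertical axes. The miR-506 sequence stood at 22.9% at 180 days against 10.6% at 30 days, and the miR-509-5p sequence at 71.3% at 180 days against 85.5% at 30 days.

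The remaining sequence groups were each under 3% of the member reads. The miR-508 sequence had 387 reads at 180 days against 714 at 30 days, a ratio of 4.79 (4.22 to 5.42), and the miR-514 sequence 1 had 285 at 180 days against 520 at 30 days, a ratio of 4.84 (4.17 to 5.60). The miR-514 sequence 2 had 79 reads at 180 days against 193 at 30 days, a ratio of 3.61 (2.75 to 4.72), and the miR-507 sequence had 90 at 180 days against 223 at 30 days, a ratio of 3.56 (2.76 to 4.57). These intervals overlapped, so the counts do not order the scarcer groups by ratio. The miR-513a sequence had 33 reads at 180 days against 68 at 30 days, a ratio of 4.29 (2.74 to 6.59). Tags placed in no group held 34 reads at 180 days against 123 at 30 days.

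The names and the sequences parted most for miR-510, miR-507 and miR-514. Of the reads named miR-510, 98.0% at 180 days against 97.7% at 30 days had the miR-509-5p sequence within 2 edits, so the values given for miR-510 rest almost wholly on tags of that sequence. The most read tag named miR-510, with 42 reads at 180 days against 86 at 30 days, was tACTGCAGagagtggcaatcc, which has the seed of the miR-509-5p sequence and not the seed ACTCAGG of the human miR-510 entry. The miR-514 sequence 1 was listed under 3 names, with 197 of its reads at 180 days against 289 at 30 days under miR-514, 60 at 180 days against 154 at 30 days under miR-508, and 28 at 180 days against 77 at 30 days under miR-507. Forms of it carried different names, as the following tags show, with the seed in capitals. The second has a base added at the 3′ end, and the third has 1 mismatch to the leading tag as well as an added base.
listed as cfa-miR-514: tGATTGGCacctctttgagtga
listed as pbi-miR-508: tGATTGGCacctctttgagtgac
listed as hsa-miR-507: tGATTGGCacctcttggagtgaa

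The tag listed as cfa-miR-514 had 178 reads at 180 days against 235 at 30 days, a ratio of 6.69 (5.47 to 8.16). The form with a C added had 45 reads at 180 days against 114 at 30 days, a ratio of 3.49 (2.41 to 4.96), and the form listed under miR-507 had 26 at 180 days against 67 at 30 days, a ratio of 3.43 (2.09 to 5.46). The intervals of these 2 forms lay below that of the cfa-miR-514 tag. With this sequence counted under its own group, 23.3% of the reads named miR-507 at 180 days against 25.1% at 30 days, and 12.9% at 180 days against 17.1% at 30 days of those named miR-508, were moved out of those names.

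Start sites were sharp for miR-509-5p and mixed for miR-506 and miR-508. The leading start held 98.4% of the miR-509-5p sequence at 180 days against 98.8% at 30 days, and 92.2% or more of the miR-507, miR-513a and both miR-514 sequences in each library. Of the miR-506 sequence it held 76.8% at 180 days (75.4 to 78.2%) and 70.3% at 30 days (69.0 to 71.6%). A start 2 bases downstream, which is where the spider monkey entry begins, held 18.3% at 180 days (17.01 to 19.6%) and 21.7% at 30 days (20.6 to 22.9%), and a start 1 base downstream 4.47% at 180 days against 7.67% at 30 days. Short tags of the leading start match the entry less well than those starting where it begins, so some may be missing from these shares. The 3 starts give 3 seeds, shown in capitals in the most read tag of each.
leading start: tGAATGGCgcctttctgagtaga
1 base downstream: gAATGGCGcctttctgagtaga
2 bases downstream: aATGGCGCctttctgagtaga

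All 3 starts of miR-506 were higher in the 180-day library per miRNA-matched read, by unequal ratios. With the lowest whole-library totals as the base they were lower there. The ratio was 6.83 (6.50 to 7.18) for the leading start, 3.64 (3.01 to 4.39) for the start 1 base downstream and 5.26 (4.76 to 5.79) for that 2 bases downstream, with no overlap of the 3 intervals. Over the members, the seed GAATGGC stood on 17.6% of member reads at 180 days against 7.44% at 30 days, and the seed ATGGCGC on 4.11% at 180 days against 2.30% at 30 days. The miR-508 sequence also had a start 2 bases downstream, led by the tag aCTGTCACctttttgagtaga, and this start held 31.0% (26.4 to 35.9%) at 180 days and 25.5% (22.3 to 28.9%) at 30 days. There the intervals of the 2 libraries overlapped.

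**Figure D4:**
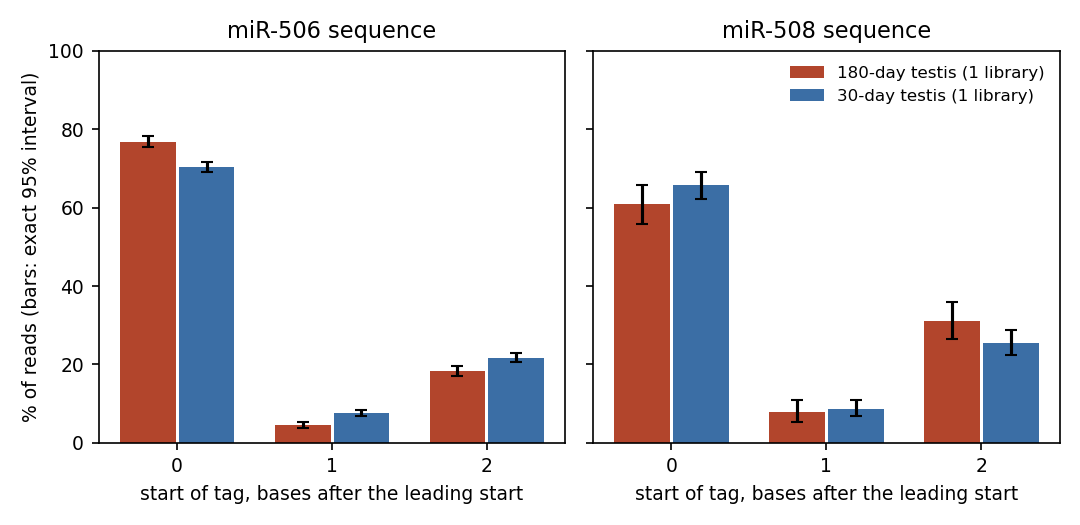
Share of reads (percent) by 5′ start in the miR-506 and miR-508 sequences, in the 180-day and the 30-day library, with exact 95% counting intervals. For miR-506 the leading start stood at 76.8% at 180 days against 70.3% at 30 days, and for miR-508 at 61.0% at 180 days against 65.7% at 30 days.

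The ends of the miR-509-5p sequence differed between the libraries in their longest and shortest forms. The most read form of each length with the same start was followed, 7 forms of 18 to 24 nucleotides that together held 85.0% of the group at 180 days against 86.1% at 30 days. The leading form of 22 nucleotides had 3769 reads at 180 days against 14614 at 30 days, a ratio of 2.28 (2.197 to 2.36), and the form of 21 nucleotides had 3670 at 180 days against 12421 at 30 days, a ratio of 2.61 (2.51 to 2.71). The shortest form had 118 reads at 180 days against 1040 at 30 days, a ratio of 1.00 (0.821 to 1.21).
shortest form, 18 nt: tACTGCAGagagtggcaa
leading form, 22 nt: tACTGCAGagagtggcaatcat
longest form, 24 nt: tACTGCAGagagtggcaatcatgt

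The longest of these forms had 216 reads at 180 days against 304 at 30 days, a ratio of 6.27 (5.25 to 7.49), close to that of miR-506. It was scarce, at 1.94% of the group at 180 days against 0.745% at 30 days. Reads outside the members differed in the same directions at these lengths. There 24 nucleotides made up 4.65% at 180 days against 2.81% at 30 days, and 18 nucleotides 0.702% against 0.926%. The form of 23 nucleotides that ends in g had 1302 reads at 180 days against 4930 at 30 days, a ratio of 2.33 (2.19 to 2.48), while one of the same length that ends in t had 204 at 180 days against 1281 at 30 days, a ratio of 1.41 (1.21 to 1.63). Tags of 23 nucleotides and over made up 19.2% of the miR-509-5p group at 180 days against 18.8% at 30 days, and 23.02% at 180 days against 19.0% at 30 days of the reads outside the members. In the miR-506 group they made up 45.9% at 180 days (44.3 to 47.6%) and 38.8% at 30 days (37.5 to 40.2%). For miR-506 the forms of 22, 23 and 24 nucleotides had ratios of 6.04, 7.53 and 7.97. No listed tag with its leading start and no mismatch to the leading tag was shorter than 22, so shorter forms were not compared. The form of 22 nucleotides already had 1 mismatch and 3 unmatched bases to its entry. Shorter ones would match it less and may be missing from the lists, which also bears on the length shares of miR-506.

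**Figure D5:**
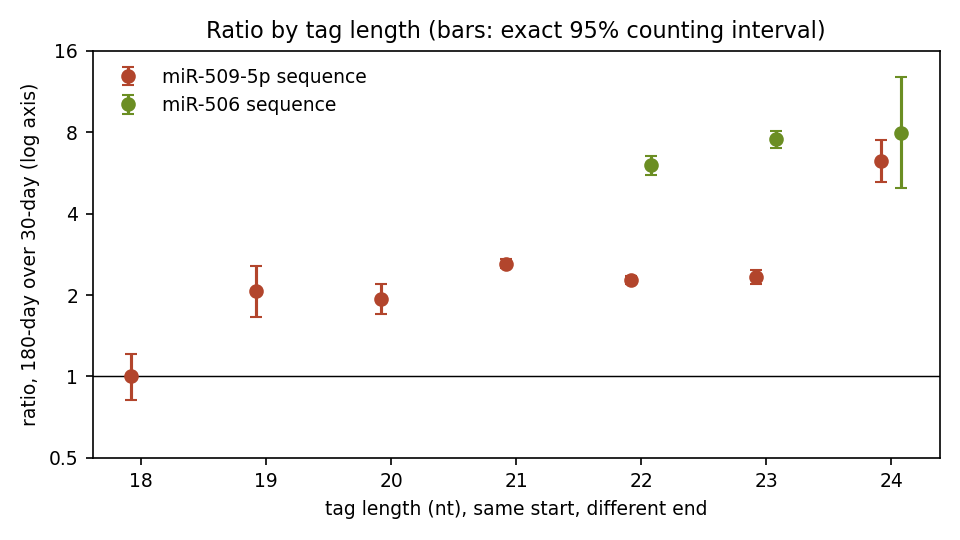
Ratio of the 180-day to the 30-day library (log axis) by tag length in nucleotides, for forms of the miR-509-5p and the miR-506 sequence that share a start, with exact 95% counting intervals. The miR-509-5p forms ran between 1.00 at 18 and 6.27 at 24 nucleotides, with 1.93 to 2.61 at the lengths between, and the miR-506 forms between 6.04 and 7.97.

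The other X-linked names looked at came from a chosen list, which does not hold every X-linked miRNA. These families are X-linked in human or rodents, not all of them near these genes, and were read under 20 names and arms. Of these, 4 could be compared. They include rodent members of the miR-506 family, such as miR-201, which was compared. Of these 4, 1 was higher and 1 lower in the 180-day library, with a median log2 ratio of -0.52. miR-424* and miR-424, from a separate cluster of the X chromosome, had ratios of 0.594 (0.539 to 0.653) and 0.824 (0.723 to 0.935). miR-452, with 4 reads at 180 days against 101 at 30 days, was 2.86-fold lower (1.08 to 10.7). The higher name was miR-201, a mouse member of the miR-506 family. It had 82 reads (96.2 RPM) at 180 days against 142 reads (18.9 RPM) at 30 days. Its ratio of 5.10 (3.84 to 6.74) also falls below 1 with the lowest whole-library totals as the base. Its most read tag, with 68 reads at 180 days against 127 at 30 days, carried 2 mismatches to the mouse entry and is shown beside the human miR-510 entry, because both have the seed given in capitals.
tag listed as mmu-miR-201: tACTCAGGaaggcattattc
hsa-miR-510 entry: tACTCAGGagagtggcaatcac

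The names outside the family whose levels were nearest to those of miR-509-5p, by distance in log2 RPM over the 2 libraries, were miR-202*, miR-143 and miR-30d. miR-202*, an arm of the gonadal miR-202, had 14032 RPM at 180 days against 5869 RPM at 30 days, at a distance of 0.168. miR-143, known from smooth muscle, had 14731 RPM at 180 days and 5342 RPM at 30 days, at 0.183, and miR-30d, expressed in many tissues, had 15907 RPM at 180 days and 7539 RPM at 30 days, at 0.567. With 2 points this likeness is a description of levels.

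Marker miRNAs of several cell types differed between the libraries along with the members. Those of meiotic and later germ cells, miR-34b, miR-34c, miR-449a, miR-449b and miR-449c, were all 5 read in both libraries and summed to 35280 RPM at 180 days against 11.7 RPM at 30 days. The gonadal miR-202, which marks the labelled tissue, had 110872 RPM at 180 days and 68481 RPM at 30 days. At 180 days striated muscle markers summed to 6552 RPM, smooth muscle markers to 17994 RPM, red blood cell markers to 3933 RPM and the liver marker miR-122 to 218 RPM, against 1432, 6581, 1742 and 21.3 RPM in that order at 30 days. White blood cell markers had 202 RPM at 180 days and 187 RPM at 30 days, the endothelial miR-126 629 and 381 RPM, and epithelial markers 96.2 and 73.7 RPM, where 4 of 5 were read at 180 days, with miR-429 at 0, and 5 of 5 at 30 days. Every other marker list was read in full in both libraries, and the part of these cells in the members' ratios was not tested.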

How the data were processed

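Per the labels' protocols, RNA from 3 boars of an age was pooled, and gel-cut small RNA was ligated to adapters, amplified in 15 PCR cycles and read on an Illumina 1G instrument. For each library the authors deposited a list of distinct tags with the raw count of reads of each, 1 miRNA entry of any species, the lengths of both and the matching, mismatched (at most 2) and unmatched bases; these counts were used as deposited. No listed tag scored under 20, where a match adds 2, a mismatch takes 1 away and an unmatched base takes 3 away, so tags farther from every entry are not in these values. Which aligner, miRBase release and build were used is not given in the sources used here. Reads carry no molecular identifiers, so intervals and floors (3 reads) cover counting error only.

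Counts were summed by name and arm, and scaled to the miRNA-matched reads. Ratios have exact conditional 95% intervals and shares exact Clopper-Pearson ones. A name with 20 or more reads over both libraries was called higher at a ratio of 2 or more, or lower at 0.5 or less, where the interval excluded 1. A single pooled library per age allows neither a replicate check nor a p-value. Every member was named with its values, or with its reads alone under 20. Of the chosen list of other X-linked names the 4 most read were given, as were the 3 names nearest in log2 RPM. The members, lists and rules were chosen with earlier results of these data known. Sequence groups joined member tags within 2 edits of a leading tag, ungapped with shifts of up to 4 bases and at least 15 bases of overlap, or by edit distance. Whole-library totals were inferred from the tag numbers, which follow falling counts. Each unlisted tag took the count of the next listed one, and tags after the last listed one were left out. Alternatives were other scalings, tags, names, folds and minimums. The intervals and the call rule were run on simulated counts that held counting error only, with no variation between boars, pools or PCR. Python 3.11.15, NumPy 2.4.6, SciPy 1.17.1, matplotlib 3.10.9, edlib 1.3.9, R 4.3.3 and edgeR 4.0.16 (for TMM factors) were used.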

Additional observations from a re-analysis of the deposited data

How the results depend on the processing

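No paired analysis was possible because each age had 1 library and the labels carry no replicate numbers. Per read of the whole library at the lowest totals (log2 shift -3.06), the summed ratio was 0.346 (0.340 to 0.353), and those of miR-506, miR-507, miR-508, miR-509-5p, miR-510, miR-513a and miR-514 were 0.744, 0.413, 0.547, 0.288, 0.345, 0.481 and 0.609. Of the 7 names 0 were then higher and 4 lower, beside 5.76% and 84.4% of all names. With TMM scaling (shift -0.91) the summed ratio was 1.54 and 4 names were higher, beside 15.4% of all names, and with median-of-ratios scaling (shift -0.89) they were 1.56 and 4, beside 15.8%. Under both, miR-507, miR-509-5p and miR-510 lost the call, at 1.28 to 1.86. Perfect matches alone left 2 reads at 180 days and 3 at 30 days, a summed ratio of 6.30 (0.526 to 55.0) that was not called, and too few reads to count names. Without the most read tag of each name 6 names were higher, since miR-513a fell to 2.38 (0.871 to 5.62), and with a minimum of 100 reads 6 of 6 were. The count stayed at 7 without tags of 1 read, with tags of 20 to 24 nucleotides, without a minimum, with a 1.5-fold rule, with both arms summed, and for the 7 sequence groups, an alternative chosen after seeing the data. Moving tags to the member entry they match best left 20 and 70 reads under miR-510, a ratio of 2.52. Depth at 180 days limits miR-513a and the scarcer names most.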
